A study of Mus musculus with 10 samples.

Results

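The regions described here are p63 peaks that lay deep inside very long genes of mouse keratinocytes. A peak was included when it lay on chromosomes 1 to 19, when its midpoint was inside a protein-coding gene over 200 kb long, and when that midpoint was over 25 kb from both ends of the gene. The middle part of a gene that meets the last condition is called its interior below. Of the 8451 peaks deposited for the whole series, 8294 lay on these chromosomes and 806 met the rule, which is 9.54% of the whole list. They were set against 944 genes, of which 360 held at least 1 of them. In 2 cases a peak lay in the interiors of a pair of overlapping genes, so that there were 808 pairs of a peak and a gene.

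The series holds 10 chromatin immunoprecipitation sequencing libraries from MK1 and MK2, which the labels describe only as 2 similar mouse keratinocyte cell lines, with no mouse strain, genotype or treatment given. The 2 libraries used here were made with the p63 antibody 4A4, 1 from each line. The other 8 libraries, 2 each for H3K4me1, H3K4me3, H3K27ac and input chromatin, were not analysed here. The p63 peaks come as 1 list of positions made from both lines together, with no peak height, so read depth is unknown, the lines cannot be compared with each other, and a stretch without a peak can hold binding that was not detected. Positions refer to mm10 and count from 1. Genes are those of RefSeq for GRCm38.p6, which shares these chromosome coordinates. Intervals in brackets are 95% intervals, exact Poisson for a density and Wilson for a share, and they cover counting error only. Neighbouring peaks are not independent and there are no values per sample, so no test of a difference was made and differences between intervals are given as descriptions.

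p63 is a transcription factor of the p53 family that stratified epithelia need in order to form. It binds DNA as a tetramer at a site built from paired copies of a short palindrome with a C and a G at its core, and it acts largely from enhancers that lie away from gene starts. Very long genes are common among those for neuronal adhesion molecules and ion channels, but some genes of epithelial cells, such as Dst, Lama3 and Trp63 itself, are also long, and their introns can hold enhancers and alternative promoters. RefSeq extents alone were at hand for most genes, so exons could not be told from introns, and each peak is placed only by its distance from gene ends and from listed transcription starts.

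The few places where sequence of such a peak could be read are shown first. RefSeq promoter windows on GRCm38.p6, which run from 250 bases before a listed start to 50 after it, overlapped 11 of the 806 peaks. In 4 of these the start belonged to the long gene itself, namely Dst, Pid1, Tiam1 and Stox2, and in the others to a gene nested in it or overlapping it. Only 707 of the 944 long genes have a listed start, so peaks at starts of the rest could not be counted. Of the windows, 9 shared at least 100 bases before the start with the peak, and those bases were searched for the p53-family full site, a 20-base consensus of adjoining decamers in which CNNG is followed by any 6 bases and a second CNNG. The consensus reads the same on both strands, so 1 search covers both, and a match is a description of letters, not a mapped binding site. In each sequence below, which runs 5′ to 3′ along the strand of the listed start, the capitals mark the 20 bases that fit the consensus best with all 4 core bases in place.

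The Dst peak is shown because it covered a whole promoter window of an internal start of a hemidesmosome gene. It spanned 34159897 to 34160416 on chromosome 1, around a listed start at 34160260 on the plus strand, and the bases shown are chr1:34160010-34160259.
Dst internal start: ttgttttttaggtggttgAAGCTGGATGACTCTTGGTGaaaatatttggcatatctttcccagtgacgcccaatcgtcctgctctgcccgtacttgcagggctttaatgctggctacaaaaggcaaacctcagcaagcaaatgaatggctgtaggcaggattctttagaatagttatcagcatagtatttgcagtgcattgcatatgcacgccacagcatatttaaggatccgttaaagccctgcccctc
The best 20 bases there met the consensus at 13 of 20 positions. Of the 32851 listed promoter windows, which do not cover every gene, 33.5% held a match at least as good in the same stretch. The peak extended past both sides of the bases shown.

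The Pid1, Stox2, Nf1 and Astn2 sequences are shown because each held a near-complete site inside a peak of a long gene. Pid1 encodes an adaptor protein of insulin signalling. Its peak overlapped an internal start at 84284645 on the minus strand, and the bases shown are chr1:84284646-84284877.
Pid1 internal start: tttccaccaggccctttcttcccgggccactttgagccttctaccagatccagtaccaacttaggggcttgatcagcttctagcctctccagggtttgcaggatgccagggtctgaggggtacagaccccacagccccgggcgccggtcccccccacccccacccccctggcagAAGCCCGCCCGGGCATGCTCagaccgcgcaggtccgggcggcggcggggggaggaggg
Stox2 encodes a winged-helix protein, and its only interior peak lay just upstream of an internal start at 47352348 on the minus strand, with the bases shown at chr8:47352378-47352598.
Stox2 internal start: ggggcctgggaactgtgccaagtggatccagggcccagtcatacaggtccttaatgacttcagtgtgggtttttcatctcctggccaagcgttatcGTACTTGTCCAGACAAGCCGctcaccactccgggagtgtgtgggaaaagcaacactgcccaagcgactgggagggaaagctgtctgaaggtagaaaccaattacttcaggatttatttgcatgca
Nf1 encodes neurofibromin, a Ras regulator, and its peak overlapped the window of the non-coding gene AU040972 on the minus strand at chr11:79484032-79484248.
Nf1 interior, AU040972 start: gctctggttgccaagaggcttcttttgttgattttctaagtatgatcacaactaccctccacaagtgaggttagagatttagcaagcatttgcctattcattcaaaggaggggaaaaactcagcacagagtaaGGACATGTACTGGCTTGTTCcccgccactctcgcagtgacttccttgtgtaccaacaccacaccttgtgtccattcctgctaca
Astn2, a neuronal gene, held 1 peak, which lay on the start of the nested gene Trim32, an E3 ubiquitin ligase gene, on the plus strand at chr4:65604736-65604985.
Astn2 interior, Trim32 start: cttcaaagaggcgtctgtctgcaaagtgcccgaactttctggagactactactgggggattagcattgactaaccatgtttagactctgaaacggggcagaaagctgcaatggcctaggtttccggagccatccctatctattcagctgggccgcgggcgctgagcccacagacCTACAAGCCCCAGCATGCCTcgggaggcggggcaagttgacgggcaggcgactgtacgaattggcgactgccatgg

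Pid1, Stox2 and Nf1 each matched the consensus at 18 of 20 positions, and Astn2 at 17. Matches at 17 or better were also found in 3 peaks not shown, among them those of Rasal2 and Pitpnc1, so that 7 of the 9 readable members held one. For the stretches that scored 18, matches as good occurred in 0.247% to 0.262% of the listed promoter windows, and for those that scored 17 in 0.968% to 1.14%. Any match with the 4 core bases was far more common, in 55.6% to 62.6% of windows for these same stretches. Among 219 other autosomal peaks that overlapped a promoter window by as much, 55 (25.1%) held a match of 17 or better. This search was added after the peak counts were seen, and below 17 the next best member scored 14. The kinds of start in the members and in the other peaks were not matched. The 9 readable members are few and were readable only because a start is listed there, so they do not describe the rest of the 806.

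In all, 3 microRNA hairpins lay wholly inside a peak of a long gene, of 59 hairpins in all interiors. They are Mir214 in Dnm3, Mir3075 in Zmiz1 and Mir7687 in Gse1. Mir214 is shown because its hairpin filled 110 of the 165 bases of a peak at 162223335 to 162223499 on chromosome 1. Dnm3 encodes a dynamin and lies on the opposite strand. The hairpin of Mir199a-2, which is known to share a transcript with Mir214, ended 5.41 kb before the peak. The hairpin is at chr1:162223368-162223477 on the plus strand, with its best full-site match in capitals, and its mature forms have the seed, bases 2 to 8, in capitals.
Mir214 hairpin: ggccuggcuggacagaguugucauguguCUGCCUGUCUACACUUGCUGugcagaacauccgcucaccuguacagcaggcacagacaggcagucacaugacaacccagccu
mmu-miR-214-5p: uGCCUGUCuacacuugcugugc
mmu-miR-214-3p: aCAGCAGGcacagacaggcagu
The hairpin matched the consensus at 15 of 20 positions, and 3.8% of promoter windows held a match as good in a stretch of the same length. The Mir3075 hairpin matched at 16 positions, as good as 1.03% of windows, and the Mir7687 hairpin held no match with all 4 core bases.

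Interior peaks of long genes were sparser than peaks inside genes of intermediate length. The 944 interiors covered 353 Mb and held 0.229 peaks per 100 kb (0.213 to 0.245), or 1 peak per 437 kb. The first and last 25 kb of the same genes held 142 peaks, at 0.305 per 100 kb (0.257 to 0.359). Interiors of genes of 100 to 200 kb, cut with the same margins, held 615 peaks at 0.526 per 100 kb (0.486 to 0.570). DNA over 25 kb from any protein-coding gene held 1793 peaks at 0.179 per 100 kb (0.170 to 0.187), and chromosomes 1 to 19 as a whole held 0.345 per 100 kb (0.338 to 0.353). The long interiors thus lay between gene-poor DNA and the chromosome average, and none of these 5 intervals overlapped except that the end zones of the long genes reached the chromosome average.

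Pooled over the genes of a length class, density went down with gene length among the long genes themselves, while the share of genes with a peak hardly moved. Genes of 200 to 300 kb held 310 peaks at 0.396 per 100 kb (0.353 to 0.442). Genes of 300 to 500 kb held 0.282 (0.251 to 0.316) and genes of 500 to 1000 kb 0.147 (0.124 to 0.173). The 55 genes over 1000 kb held 54 peaks at 0.0766 per 100 kb (0.0576 to 0.1000). In the same order, 38.1%, 39.4%, 37.5% and 32.7% of genes held at least 1 peak, and each of these intervals overlapped the others. Across the 944 genes, the Spearman correlation of gene length with the number of interior peaks was 0.02 and that of length with density in the gene was -0.08, both given as descriptions. The median density per gene was 0 in each of the 4 length classes. Of the 55 genes over 1000 kb 18 held a peak, and of the 412 genes of 200 to 300 kb 157 did.

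**Figure D1:**
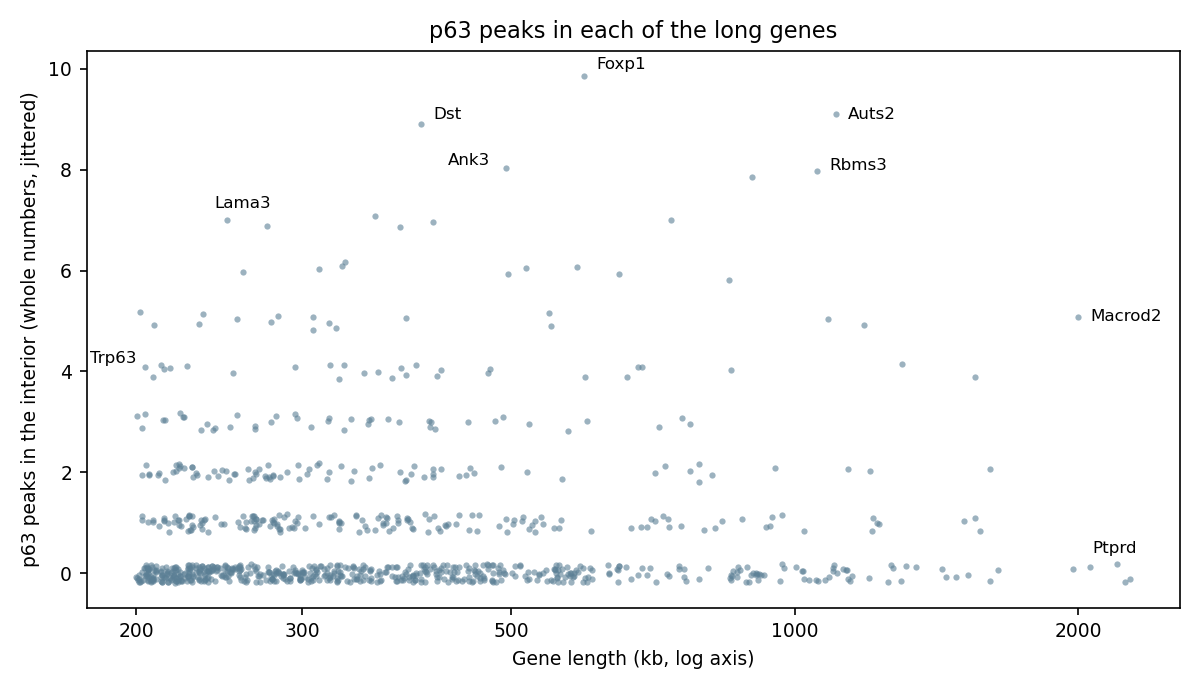
Number of interior p63 peaks in each of the 944 genes over 200 kb (1 point per gene, whole numbers with a small vertical jitter) against gene length on a log axis. Most genes held 0 at every length, Foxp1 held the most with 10, and Ptprd, the longest gene at 2271 kb, held 0.

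Most long genes held 0 interior peaks, and a minority held several. A total of 584 genes held 0 interior peaks, 168 held 1, 83 held 2, 43 held 3 and 66 held 4 or more. Over all long genes, 38.1% held at least 1 and 6.99% held at least 4, and these are the background shares for every gene class below. The 66 genes with 4 or more held 345 of the 806 peaks (42.8%) on 8.49% of the interior DNA. The 109 genes with 3 or more held 58.8% of the peaks on 12.2% of the DNA. Genes picked by their own peak counts hold a raised share of peaks by construction, and random placement was not tested. Genes with 0 interior peaks covered 220 Mb and had a median length of 324 kb, close to the 328 kb of genes with 1 or more.

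Genes that attach epithelial cells to their matrix and to one another held the highest density of any class. Classes were assigned by gene symbol, and some assignments were corrected after the counts were seen, so the order of the classes rests on those choices. Genes of 1 class differ in length, so densities are also given for a common length range below. The class of epithelial adhesion and polarity has 20 long genes, and 13 of them held a peak (65.0%, 43.3 to 81.9, against 38.1% of all long genes). Together they held 48 peaks at 0.720 per 100 kb (0.531 to 0.955), and 0.618 (0.439 to 0.844) without Dst. Of the 20 genes, 7 held 4 or more.

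Dst encodes the plakin BPAG1, which links keratins to hemidesmosomes in its epithelial form and other cytoskeletal filaments in its longer neuronal and muscle forms. The gene spans 33907888 to 34308662 on chromosome 1 and held 9 interior peaks, or 2.57 per 100 kb. Of these, 6 lay within 19.6 kb, from 34140840 to 34160416, with a median width of 440 bp, and the last was the peak shown above on the internal start. Another peak of the same group, at 34159523 to 34159750, lay at -0.624 kb from that start. The table does not say which isoform starts there.

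Lama3 encodes the alpha 3 chain of laminin 332, the main anchoring laminin under the epidermis. It spans 12333417 to 12583013 on chromosome 18 and held 7 peaks at 3.51 per 100 kb, the highest density of any long gene with at least 3 peaks. All 7 lay within 49.4 kb, and 5 of them formed 1 group from 12497760 to 12513025. Tns3 and Tns1, which encode tensins of cell-matrix adhesions, held 5 and 4 peaks. Pard3, a polarity gene, held 5, and Lpp and Cadm1 held 4 each. The longest gene of the class, Pard3b at 1004 kb, held 0.

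Regulators of small GTPases, which steer actin and adhesion, held a peak in 29 of 46 cases (63.04%, 48.6 to 75.5), at 0.483 per 100 kb (0.372 to 0.617). Tiam1, which activates Rac, held 7 peaks across 258 kb of its 358 kb. One of them, at 89974124 to 89974715 on chromosome 16, covered a listed internal start at 89974699 on the minus strand, and a second lay upstream, at -0.926 kb from it. Dock9, which activates Cdc42, held 6 peaks at 2.86 per 100 kb. Arhgef28 held 5 and Rapgef2 held 3. Arhgap15 at 647 kb was the longest of the class with 0.

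In the actin and microtubule class, 28 of 52 genes held a peak (53.8%, 40.5 to 66.7), at 0.420 per 100 kb (0.322 to 0.539). Ank3, which encodes ankyrin-G and ties membrane proteins to spectrin, held 8 peaks over 345 kb. Frmd4b, a FERM-domain gene, held 6 over 276 kb, nearly the whole of its interior (98.2%). They included the second widest member, 1003 bp at 97590997 to 97591999 on chromosome 6. Nav2 held 6, of which 4 lay within 9.2 kb, and Ablim1 held 5. Frmd4a, a paralogue of Frmd4b, held 0 on 596 kb.

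**Figure D2:**
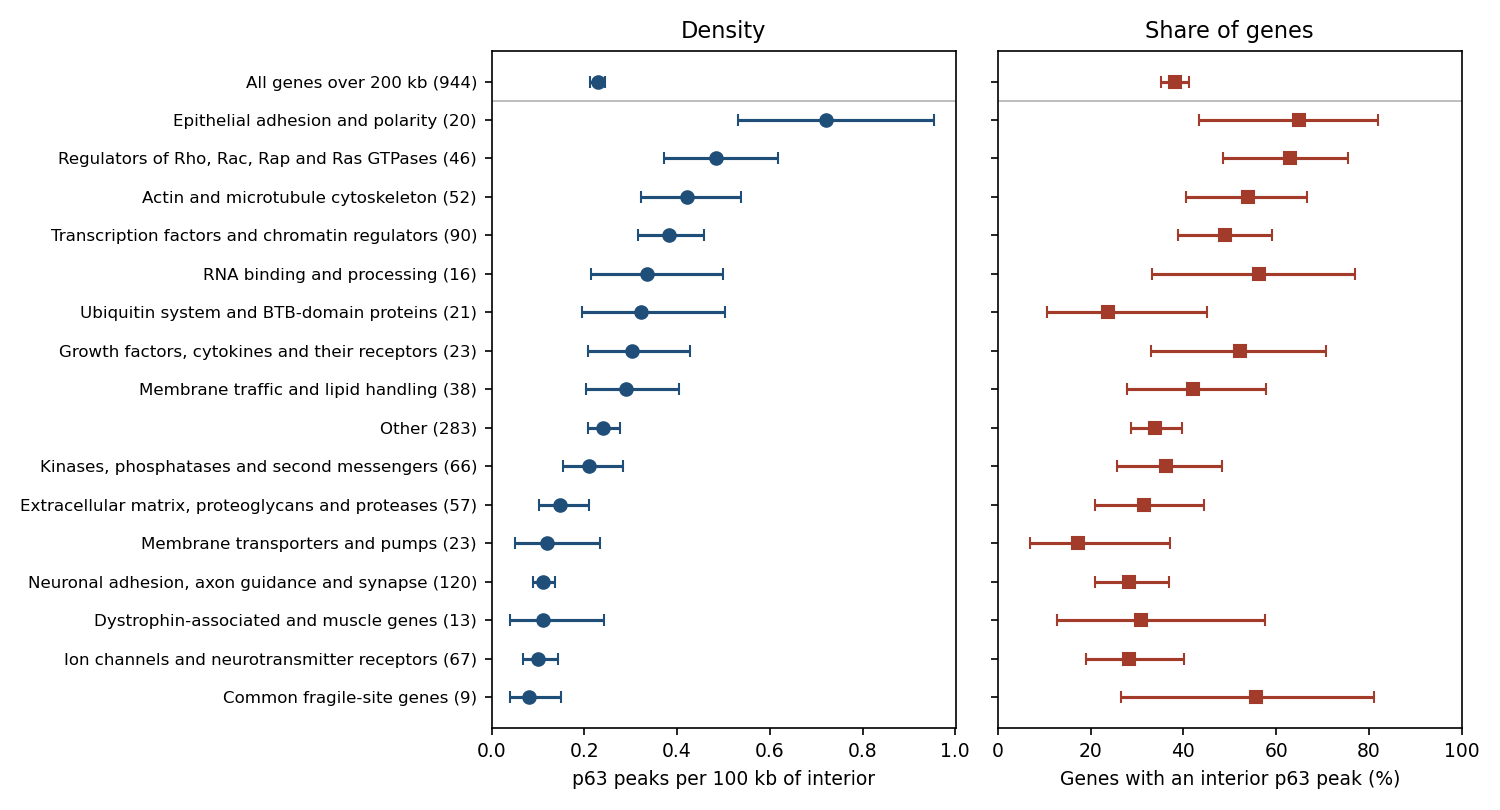
Interior p63 peaks in 15 gene classes, in the genes of no class and in all 944 long genes (top row), as peaks per 100 kb on the left and as the share of genes with at least 1 peak on the right, with 95% intervals and the number of genes in brackets. Epithelial adhesion stood at 0.720 per 100 kb and ion channels at 0.101.

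Transcription factors and chromatin regulators supplied the largest number of peaks of any named class, 116 in 90 genes, of which 44 held at least 1 (48.9%, 38.8 to 59.0). Their density was 0.383 per 100 kb (0.316 to 0.459). Foxp1, a forkhead factor, held 10 peaks, the most of any long gene, across 359.5 kb of chromosome 6. They fell into 7 groups when peaks within 10 kb were joined, and no group held more than 2. Auts2, a nuclear regulator best known from neurodevelopment, held 9 peaks on 1106 kb, and 8 of these lay within 90.1 kb. Maml2, a Notch coactivator, held 7. Med12l, a Mediator subunit gene, held 6. Zmiz1, a coactivator, held 5 on 209 kb. Hdac9 at 869.5 kb held 0.

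Trp63, the gene of p63 itself, is just over the length limit at 208 kb and held 4 interior peaks, or 2.53 per 100 kb. They spanned 25725518 to 25725793, 25782687 to 25782903, 25835715 to 25836070 and 25843549 to 25844284 on chromosome 16. The last pair lay 8.02 kb apart, and the other gaps were 57.1 and 53.1 kb. No promoter window of Trp63 was in the table used.

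Genes of neuronal adhesion, axon guidance and synapses made up the largest named class and were sparse in peaks. Of 120 genes, 34 held one (28.3%, 21.0 to 37.0), at 0.111 per 100 kb (0.0887 to 0.138). They are also long, with a median of 549.5 kb against 326 kb for all long genes. Among those of up to 500 kb, 14 of 55 held a peak, at 0.241 per 100 kb (0.167 to 0.337), against 0.330 (0.304 to 0.358) for all 729 long genes of up to 500 kb. In that length range epithelial adhesion stood at 1.08 (0.764 to 1.48), RNA-binding genes at 0.681 (0.381 to 1.12) and GTPase regulators at 0.647 (0.490 to 0.838). Of the genes in that range, 10 of 15 held a peak for epithelial adhesion, 7 of 10 for RNA binding and 25 of 38 for GTPase regulators. Over all 729 long genes of that range, 282 (38.7%) held one. Of the 10 longest genes with 0 interior peaks, 7 belonged to the neuronal class: Ptprd, Cntnap2, Lsamp, Dlg2, Csmd1, Nrxn3 and Magi2. The others included Lrp1b and Rbfox1. Of the 55 genes over 1000 kb, 37 held 0 interior peaks. The neuronal share of those 55 genes was not computed, so the 7 of 10 cannot be separated from gene length. Ptprd, a receptor phosphatase of synapses, and Cntnap2, a neurexin relative, span 2271 and 2241 kb.

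The neuronal class still held some of the richest genes. Sorcs2, a sorting receptor gene, held 7 peaks at 2.11 per 100 kb, and 3 of them lay within 25 kb of the nested gene Psapl1. Tenm4, a teneurin gene, held 7 over 623 kb, with a largest gap of 320.1 kb. Slit3, which encodes a guidance ligand, held 6, no pair of them within 10 kb. Dlgap1, which encodes a scaffold protein of the synapse, held 6 peaks at 70726607 to 70756038 on chromosome 17. From the first midpoint to the last they spanned 29.0 kb of its 852 kb, or 3.61% of its interior.

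Ion channels and neurotransmitter receptors were also sparse in peaks, at 0.101 per 100 kb (0.0679 to 0.144), or 0.181 (0.117 to 0.267) in genes of up to 500 kb, with a peak in 19 of 67 genes (28.4%, 18.97 to 40.1). Kcnq1, a potassium channel gene of epithelia and heart, held 5 peaks within 36.3 kb, and Kcnh1 held 4. Membrane transporters held a peak in 4 of 23 genes at 0.119 per 100 kb (0.0512 to 0.234), or 0.128 (0.0554 to 0.253) in genes of up to 500 kb. Of their 8 peaks 4 were in Slc24a3, and without it the density was 0.0632 (0.0172 to 0.162). Dystrophin-associated and muscle genes held a peak in 4 of 13, at 0.111 (0.0408 to 0.242), and 0 held more than 2. The 9 genes of common fragile sites, with a median length of 1346 kb, held 10 peaks at the low density of 0.0811 (0.0389 to 0.149), although 5 of the 9 held at least 1 (55.6%, 26.7 to 81.1, against 38.1% of all long genes). Of these peaks, 5 were in Macrod2 and 2 in Fhit.

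The remaining classes had densities of 0.149 to 0.336, on either side of the 0.229 of all long genes. Kinases, phosphatases and second messengers stood at 0.211 (0.153 to 0.283), led by Gnaq with 5 peaks. Extracellular matrix, proteoglycan and protease genes stood lower, at 0.149 (0.102 to 0.210), led by Ext1, a heparan sulfate polymerase gene, and Galnt18, a mucin-type glycosylation gene, with 5 each. Fras1, which encodes a protein of the epidermal basement membrane, held 3. Growth factors and receptors stood at 0.303 (0.207 to 0.428), with 5 peaks each in Ltbp1, a TGF-beta binding protein gene, and Nrg1, an ErbB ligand gene. Membrane traffic stood at 0.291 (0.203 to 0.405), led by Dnm3 with 6. RNA-binding genes stood at 0.336 (0.215 to 0.499), with a peak in 9 of 16 genes (56.3%, 33.2 to 76.9). They were led by Rbms3 with 8 and Rbfox3 with 4, and at 0.260 (0.149 to 0.423) without Rbms3. The ubiquitin and BTB-domain class stood at 0.323 (0.194 to 0.504), but 13 of its 19 peaks were in Btbd11 with 7 and Nedd4l with 6, and only 5 of its 21 genes held one. Without Btbd11 its density was 0.212 (0.110 to 0.370). Of the 283 genes in no class, 96 held a peak, and the fullest were Etl4 with 8, Gmds with 6, and Antxr1 and Gas7 with 5 each. Antxr1, an anthrax toxin receptor gene, Gas7, Zmiz1, Tns3, Btbd11, Dock9, Cmip, Dst and Trp63 followed Lama3 as the genes densest in peaks, at 2.53 to 3.29 per 100 kb.

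Inside a gene, peaks were spread widely but unevenly. In the 192 genes with 2 or more interior peaks there were 448 gaps between neighbours, with a median of 29.5 kb and quartiles of 9.52 and 74.3 kb. Of these gaps, 117 (26.1%) were at most 10 kb and 37 at most 2 kb, and 85 (18.97%) were over 100 kb. Of the 806 peaks, 211 (26.2%, 23.3 to 29.3) had another peak within 10 kb. The share was 33.3% (29.7 to 37.2) in genes of 100 to 200 kb, 25.5% (23.5 to 27.6) in DNA over 25 kb from any protein-coding gene and 29.3% (28.3 to 30.3) over all autosomal peaks. Peak density also differed between these kinds of DNA, as given above, and its part in these shares was not tested.

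**Figure D3:**
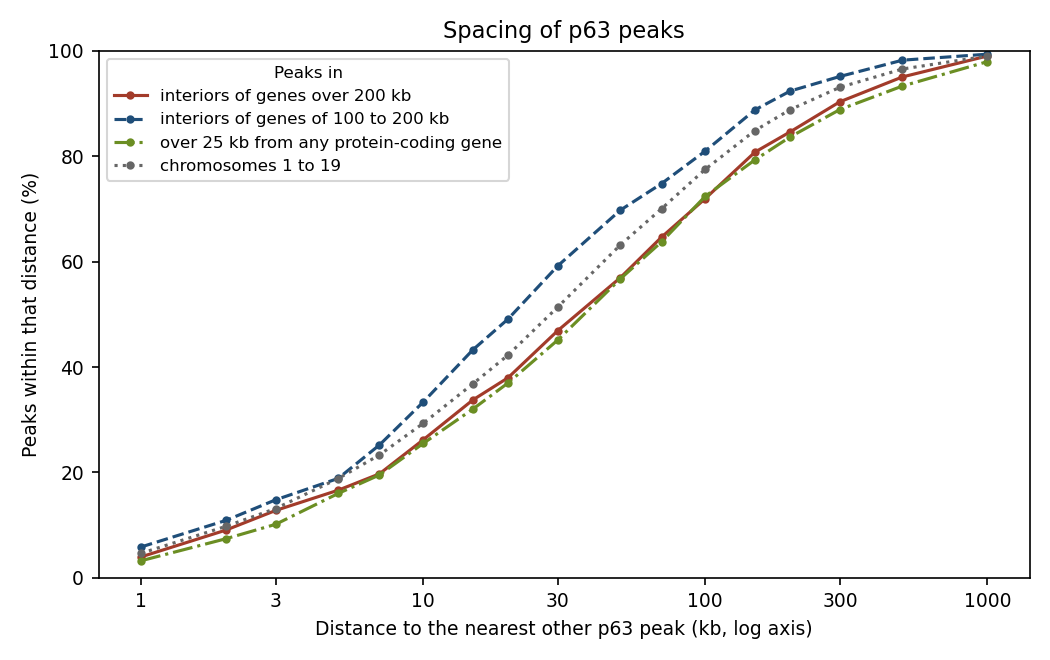
Cumulative share of peaks with another p63 peak within a given distance (log axis), for peaks in interiors of genes over 200 kb, in interiors of genes of 100 to 200 kb, in DNA over 25 kb from any protein-coding gene and on chromosomes 1 to 19. At 10 kb the shares are 26.2%, 33.3%, 25.5% and 29.3%.

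Groups of 3 or more peaks, each within 10 kb of the next, were found 14 times in 13 genes and held 53 of the 806 peaks. The matching share was not computed for peaks in other DNA. The fullest, with 6 peaks each, were those of Dst and Dlgap1, and that of Lama3 held 5. Nav2, Galnt18 and Ror1, an orphan receptor kinase gene, had groups of 4. The Galnt18 group lay within 9.48 kb at 111716560 to 111726038 on chromosome 7, and that of Ror1 within 14.0 kb at 100387434 to 100401445 on chromosome 4. Groups of 3 lay in Rbfox3, Etl4, Bmpr1b, Kcnq1, Chd9 and Dscaml1, and Auts2 had 2 of them. The tightest was in Bmpr1b, which encodes a BMP receptor, where 3 peaks with a median width of 198 bp lay within 3.94 kb at 142127391 to 142131331 on chromosome 3.

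Some genes carried all their peaks in a small part of the interior, while in others the peaks ran from end to end. In the 66 genes with 4 or more peaks, the distance from the first midpoint to the last was 49.4% of the interior at the median and ranged from 3.61% in Dlgap1 to 98.2% in Frmd4b. It was under 25% in 13 genes, among them Ror1 (4.59%), Galnt18 (9.22%), Rbfox3 (10.4%), Kcnq1 (13.4%), Etl4 (13.7%) and Lama3 (24.8%). Etl4, which is needed for the notochord and intervertebral discs, held its 8 peaks within 116 kb of a 900.3 kb gene.

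**Figure D4:**
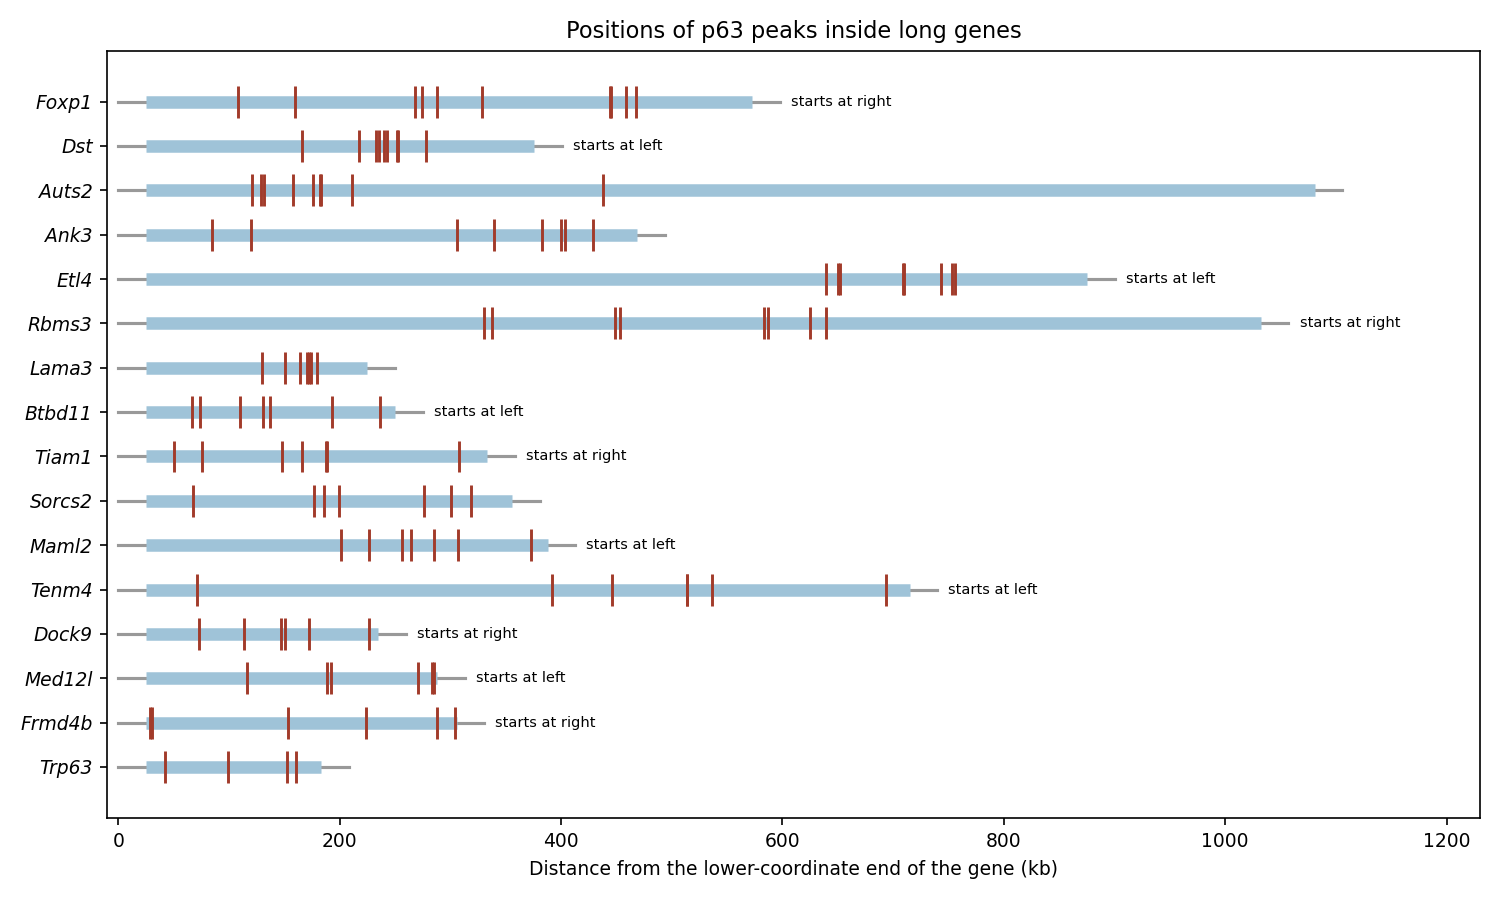
Positions of interior p63 peaks (red ticks) in the 15 genes with most of them and in Trp63, as distance in kb from the lower-coordinate end of each gene. The blue bar is the interior, the grey ends are the 25 kb margins, and the side where the gene starts is given where the promoter table lists a start. Lama3 and Etl4 show their peaks in 1 part of the gene, and Frmd4b and Tenm4 show them from end to end.

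Along the direction of transcription the peaks showed no preferred part of the gene. For 707 of the 944 genes the promoter table gives a strand, and 610 pairs of a peak and a gene fell in these. With each interior divided into 3 equal parts, the part nearest the gene start held 205 peaks (33.6%, 30.0 to 37.4), the middle part 194 (31.8%, 28.2 to 35.6) and the last part 211 (34.6%, 30.9 to 38.5). An internal start is listed in 227 of the genes. Of the peaks, 9 lay within 1 kb of such a start, 2 each in Dst and Tiam1 and 1 each in Pid1, Stox2, Lmo7, Sgms1 and Mical3. Within 5 kb there were 17. The share of interior DNA this near to an internal start was not computed, so these counts cannot be called many or few.

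Few of these peaks lay near a nested protein-coding gene, and little of the interior DNA did. Of the 806, 22 (2.73%) lay within 25 kb of a boundary of another protein-coding gene. Leaving out all DNA that near to such a boundary took the interiors from 352.6 to 345.6 Mb. It took the density from 0.229 to 0.227 per 100 kb. For the wider counts that follow, the matching share of interior DNA was not computed. Counting non-coding genes and pseudogenes too, 27 (3.35%) lay within 1 kb of another gene's boundary and 293 (36.4%) within 25 kb. Peak width was like that of other peaks, with medians of 306 bp both here and among the other 7488 autosomal peaks. The middle 50% of the members were 241 to 376 bp wide, and all were 140 to 1004 bp. The widest lay in Bnc2, which encodes basonuclin 2, a zinc finger protein, at 84291749 to 84292752 on chromosome 4. Across the 19 autosomes, density in long interiors ranged from 0.156 per 100 kb on chromosome 4 to 0.329 on chromosome 11.

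The limits of the rule cut through a continuous range. The shortest gene included was 200.1 kb long and the longest left out 199.9 kb. The member nearest to a gene end was 25.14 kb from it, and the nearest peak on the other side of that limit was 24.95 kb from an end. There were 28 pairs at 25 to 30 kb from an end and 23 peaks at 20 to 25 kb.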

How the data were processed

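Bowtie 1.1.1, SAMtools 1.1 and the build mm10 are named in the submitters' processing notes. Per the labels, the authors passed the p63 peaks of MK1 and MK2 through IDR, a filter for peaks that rank alike in replicates. What they deposited is chromosome, start and end alone. For the peak caller and its thresholds the sources used here give nothing.

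RefSeq gene extents of GRCm38.p6 were used, and 340 gene rows with positions of other scaffolds, told by ends under 3 Mb outside the Y chromosome, were left out. Overlapping interiors were merged before lengths were summed. Genes were put into 15 classes by symbol patterns, and some wrong assignments were corrected by function after the counts were seen. The site search was also added then. The members and lists were chosen with earlier results of these data known. Genes named are the 15 with most peaks, the 10 densest with at least 3, the 10 longest with 0, up to 4 of each class with its longest empty gene, Trp63, Dst and genes with a group of 3. Other genes were named after their values were seen. Python 3.11.15, numpy 2.4.6, pandas 2.3.3, SciPy 1.17.1 and matplotlib 3.10.9 were used, and the counting and the site search were tested on made-up positions and sequences with known answers. Results that name certain withheld genes are not reported here.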

Additional observations from a re-analysis of the deposited data

How the results depend on the processing

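Of 37 recalculated values, 27 stayed within the interval of the reported value or, for the count of peaks, within 1.5 times of it. A minimum gene length of 300 kb gave 497 peaks and 0.181 per 100 kb, and a minimum of 150 kb gave 0.259. A margin of 50 kb gave 0.213 per 100 kb and 33.9% of genes with a peak. Joining peaks within 10 kb gave 0.195 per 100 kb. Without the 10 genes with most peaks, density was 0.209 and 22.7% of members had another peak within 10 kb. That share was 16.6% within 5 kb and 42.3% within 25 kb. The remaining alternatives (a margin of 10 kb, non-coding genes over 200 kb included, whole peaks in the interior, surroundings of other protein-coding genes left out) stayed within those limits for each of the 4 results. The share with a close neighbour was not recalculated for joined peaks, which have none by construction. No paired analysis was possible because MK1 and MK2 share 1 joint list of positions, which also means that neither line could be left out. Read depth is unknown, and mappability and copy number along these genes were not tested.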

Other observations

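Paralogous long genes are set side by side here as values. Foxp1 held 10 interior peaks on 597 kb and Foxp2 held 0 on 540.6 kb. Tenm4 held 7, Tenm2 1 and Tenm3 0. Pard3 held 5 and Pard3b 0, Frmd4b 6 and Frmd4a 0, Rbfox3 4, Rbfox2 2 and Rbfox1 0, Slit3 6 and Slit2 0, and Nrg1 5 and Nrg3 0. Other paralogues were closer in number, such as Tns3 with 5 and Tns1 with 4, or Itpr1 and Itpr2 with 2 each. All these sets were chosen after their values were seen, and their lengths differ. How often paralogues differ in number was not counted.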
